A study of Mus musculus with 4 samples.

Results

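The DNA replication machinery is described here as 48 genes, named by their part in copying DNA. They were chosen with earlier results of these data known. Of these, 9 are genes of origin licensing, 11 of the replicative helicase, 3 of origin firing and 9 of the DNA polymerases. A further 6 belong to the sliding clamp and its loader, 3 to the single-strand binding protein and 2 to Okazaki fragment maturation. The rest are 3 genes of fork protection, and *Mcm8* and *Mcm9*. All 48 are among the 24411 genes listed for each library, and 47 had enough counts to be tested. Polyadenylated RNA was sequenced from 4 pools of 10 ICR mouse embryos each, at the late two-cell stage, produced by in vitro fertilization and collected at 36 h post-insemination (hpi). In 2 libraries the embryos had been cultured with 6 µM 10074-G5, a small molecule that binds MYC and blocks its pairing with MAX, and in the other 2 with its solvent DMSO. Both groups were cultured in KSOM medium with bovine serum albumin. The treatment began in one-cell embryos, at 3 hpi by the sample labels and at 6 hpi by the series text. Neither group carries a genetic change, so the comparison is of a compound and not of a gene deletion, and each library is a pool of embryos.

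Each round of DNA synthesis starts at origins. The origin recognition complex (ORC), CDC6 and CDT1 load the ring of MCM2 to MCM7 on DNA, which licenses the origin, and geminin blocks CDT1 from doing so again in the same cycle. The kinase CDC7 with its activator DBF4 then lets CDC45 and the GINS complex join the MCM ring. This CMG assembly is the helicase that unwinds the fork, and MCM10 also acts in origin firing. DNA polymerase α and primase lay down primers, and polymerases ε and δ extend them while held by the PCNA clamp. A cleaving mouse embryo runs through its first cycles with a store of maternal mRNA that is replaced by its own transcripts around the two-cell stage.

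The libraries held between 18206584 and 20718690 expected counts. Markers of the two-cell embryo, such as *Zscan4c*, *Zscan4d* and *Zfp352*, were present in every library, and their FPKM (fragments scaled by transcript length and sequencing depth) summed over 8 genes was 1755 and 5002 in DMSO replicates 1 and 2 and 6696 and 6809 in the treated replicates 1 and 2. Of these 8 genes, 6 were higher in both treated libraries than in both control libraries. The 10 maternal markers summed to 23921 and 15685 in the DMSO libraries and to 12154 and 13016 in the treated ones, a sum mostly of *Dppa3*, while 8 of the 10 were higher and 2 lower in both treated libraries. Cumulus cell markers were near 0, with a summed FPKM from 0.09 to 4.72 and 5 of 10 genes at 0 in every library. Sperm markers summed to between 33.8 and 43.2, a sum mostly of *Ldhc* (19.3 to 40.5), with 3 of 8 at 0 in every library. DMSO replicate 1 therefore stood apart in the two-cell and maternal markers, and a value that turned or moved by over 1.5 times without it is given both ways. For 37 of the 47 tested replication genes it lay farther from the treated mean than DMSO replicate 2, as it did for 10469 of all 13549 genes tested. The part of these marker differences in the replication genes was not tested. In pooled embryos, fewer cells that hold an RNA and less of it per cell cannot be told apart.

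With all 4 libraries, the replication genes with the largest differences were lower in the treated embryos and belonged mainly to the helicase: *Gins3*, *Gins1* and *Cdc45*. Their log2 fold changes (log2FC, treated against DMSO) were -2.41, -2.11 and -1.47. The quasi-likelihood test of edgeR, adjusted by Benjamini-Hochberg over 13549 genes, called 0 of 47 replication genes at |log2FC| > 1 and adjusted p < 0.05, as it called 0% of all genes in either direction, and its smallest adjusted p over all genes was 0.3331. At an unadjusted p under 0.05, 10 replication genes were lower and 0 were higher. That is 21.3% of the 47 for lower, beside 10.1% of all genes tested, and 0% for higher beside 4.72%. For all 10 lower genes, DMSO replicate 1 lay farther from the treated mean than DMSO replicate 2. For 4 of these 10, or 40%, the DMSO replicates differed by over 2-fold. DESeq2, run on the 18208 genes that had any count, called 3 replication genes lower (*Cdc45*, *Gins1* and *Gins3*) and 0 higher, where it called 2.4% of all genes lower and 0.478% higher. The same 3 were called by DESeq2 with transcript lengths (2.41% of genes lower), by DESeq2 on the edgeR gene set (3.54% lower and 0.716% higher), and by edgeR without a filter on low counts (2.63% lower and 0.906% higher). Limma on log2(FPKM + 1) called 0 replication genes and had 6 lower and 1 higher at an unadjusted p under 0.05, beside 8.59% and 8.2% of its genes. The values of both treated libraries lay below both DMSO libraries for 21 of 47 genes in CPM (counts scaled to library size with TMM factors), or 44.7% beside 28.3% of all genes, and above both for 8, or 17.0% beside 28.9%. In FPKM the counts were 16 and 11, and with library totals 16 and 10. The shares of all genes were not taken on those 2 scales. With 2 libraries a group, an exact permutation test of a single gene cannot go below 0.3333.

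The median log2FC of the 47 genes was -0.31, with a range from -2.41 to 1.22, and 30 lay below 0 and 17 above. The median over all genes tested was 0.04. Without DMSO replicate 1 the median of the replication genes was -0.12, and 7 genes were lower at an unadjusted p under 0.05, where 7.4% of all genes were, and 0 were higher, where 6.54% were. Of those 7, 6 were among the 10 (*Orc4*, *Mcm6*, *Cdc45*, *Gins1*, *Gins3* and *Tipin*) and *Fen1* was added. When library totals replaced TMM factors, the median of all genes moved to 0.17 and that of the replication genes to -0.15. The replication genes lay 0.35 below the median of all genes with TMM factors and 0.32 below it with library totals. This distance shrank when DMSO replicate 1 was left out: the replication median minus the all-gene median was then -0.15.

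**Figure D1:**
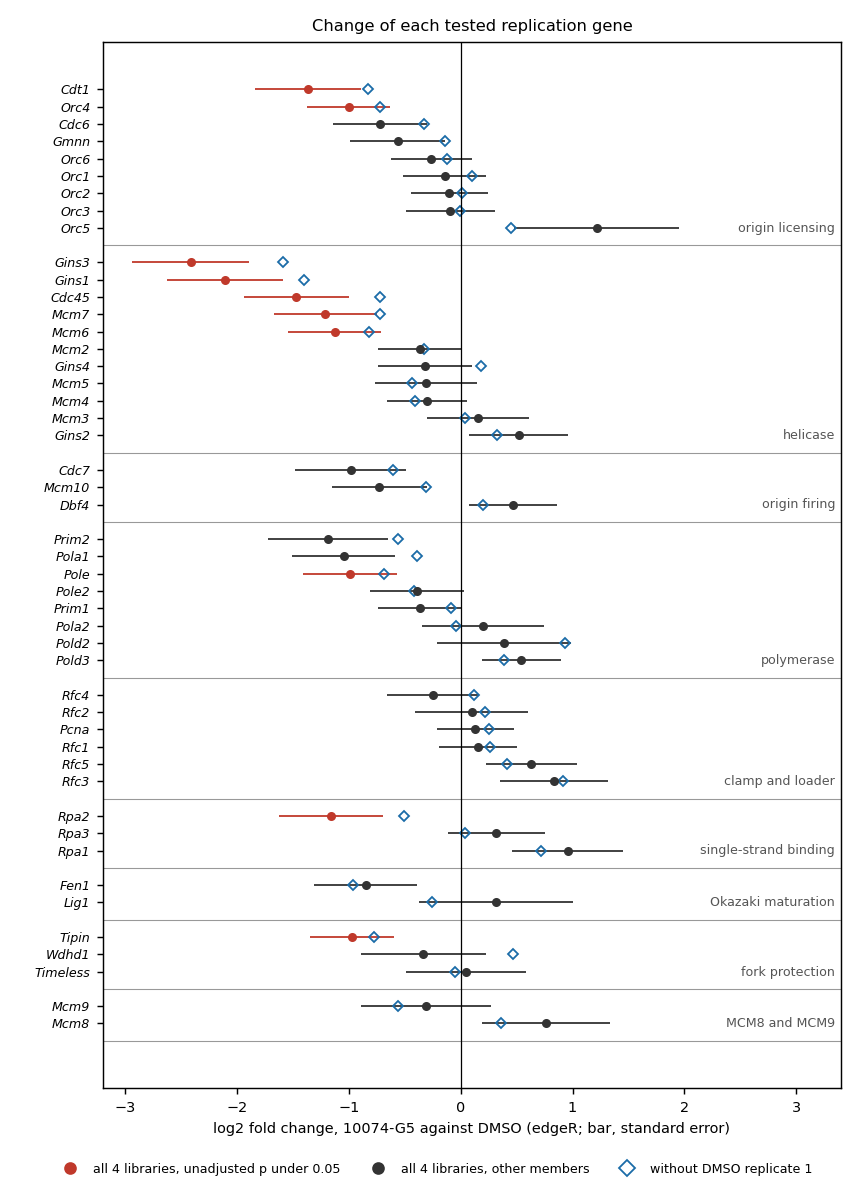
Log2 fold change of each of the 47 tested replication genes, 10074-G5 against DMSO, from edgeR with its standard error (bars) over 4 libraries, and the value without DMSO replicate 1 (open diamonds), ordered by role. *Gins3* at -2.41 and *Gins1* at -2.11 lie farthest below 0, and *Orc5* at 1.22 farthest above, which falls to 0.45 without DMSO replicate 1.

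Licensing, helicase and polymerase genes had medians close to each other, at -0.26 over 9 genes, -0.36 over 11 genes and -0.38 over 8 genes. The lowest values were in the helicase. At an unadjusted p under 0.05, 5 of 11 helicase genes were lower, or 45.5%, against 2 of 9 licensing genes, or 22.2%, and 1 of 8 polymerase genes, or 12.5%, beside 10.1% of all genes tested, so that the polymerase share was near the background. In CPM, genes with lower values in both treated libraries numbered 8 of 11 for the helicase, 4 of 9 for licensing and 4 of 8 for the polymerases (72.7%, 44.4% and 50%), beside 28.3% of all genes. Of these genes, *Mcm2*, *Mcm4*, *Mcm5*, *Orc6* and *Pole2* overlapped between the groups in FPKM. Without DMSO replicate 1, 4 helicase genes, 1 licensing gene and 0 polymerase genes were lower at that p, and the medians were -0.44 for the helicase, -0.12 for licensing and -0.24 for the polymerases. When each library was left out in turn, the helicase median ranged from -0.68 to -0.27, the licensing median from -0.39 to -0.098 and the polymerase median from -0.58 to -0.16. The 6 clamp and loader genes had a median of 0.14, or 0.26 without DMSO replicate 1. Only *Rfc4* of them lay below 0 with all 4 libraries. At an unadjusted p under 0.05, 0 of them were lower, beside 10.1% of all genes tested. Whether the roles differ from each other was not tested, since genes of one library are not replicates.

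**Figure D2:**
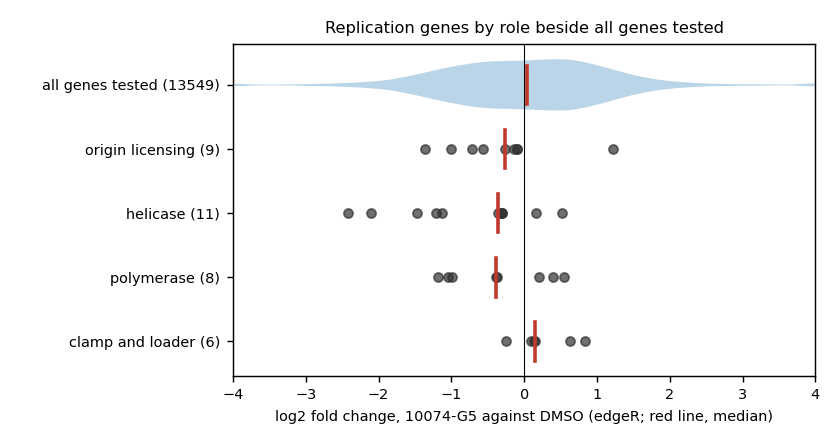
Log2 fold change (10074-G5 against DMSO, edgeR) of the genes of 4 roles beside the distribution over all 13549 genes tested, drawn from -4 to 4, with medians in red. The medians of licensing (-0.26), helicase (-0.36) and polymerase genes (-0.38) lie side by side, and 5 helicase genes lie below -1.

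The level of the replication genes ranged widely in these embryos. FPKM allows for transcript length, so levels can be set side by side between genes. *Gmnn*, which encodes geminin, had the highest level, with a mean DMSO FPKM that ranked 55 among the 24411 listed genes. *Tipin*, the partner of TIMELESS in the fork protection complex, ranked 95. At the other end, *Pold1*, the catalytic subunit of polymerase δ, was at an FPKM of 0.220 in DMSO replicate 1 and at 0 in the other 3 libraries. It had 13 counts there and 0 elsewhere, where a count of 0 allows up to 3 counts, so it did not pass the filter and no fold change is given.

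**Figure D3:**
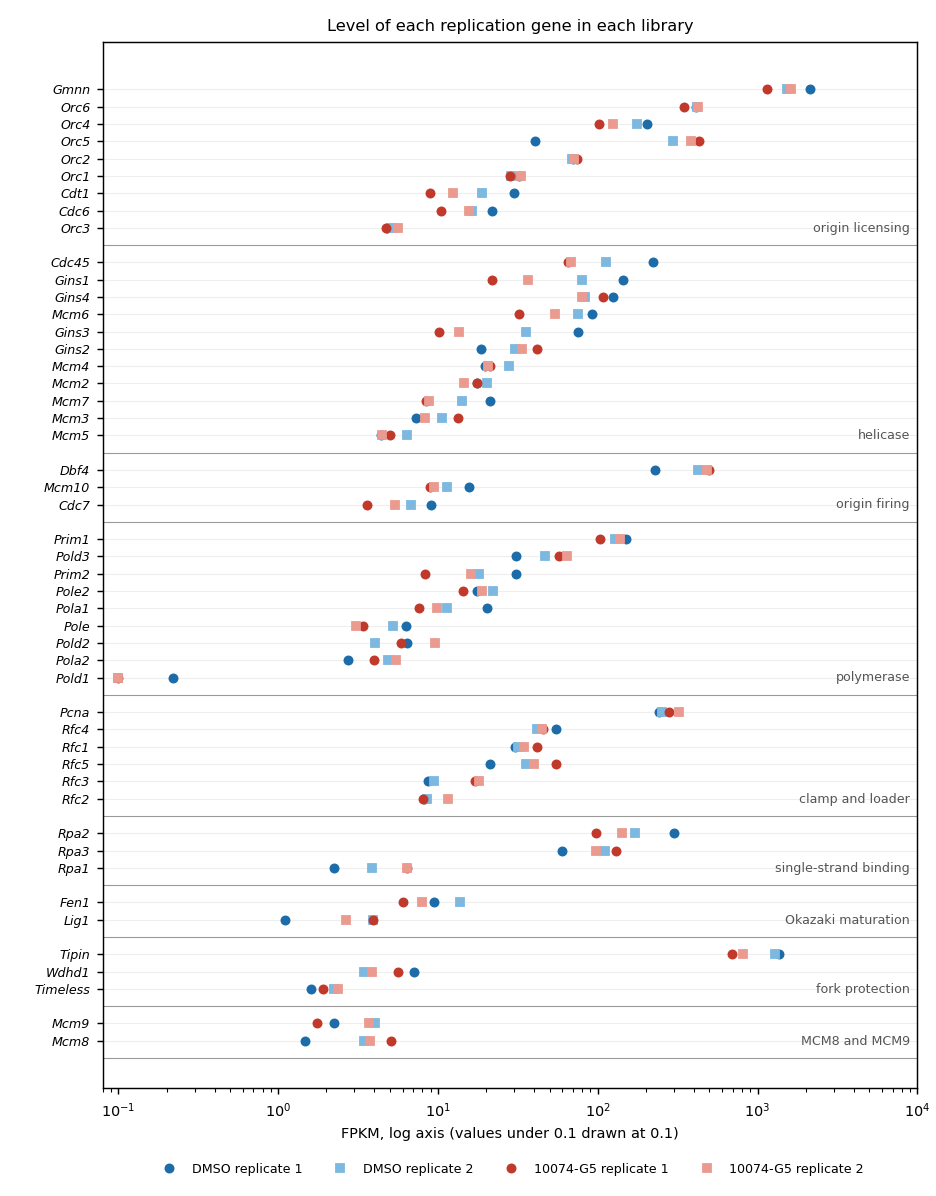
FPKM of each of the 48 replication genes in each of the 4 libraries on a log axis, ordered by role and by mean level, with values under 0.1 drawn at 0.1. *Gmnn* and *Tipin* are the highest, *Pold1* the lowest, and *Orc5* in DMSO replicate 1 (40.6) lies far from the other 3 libraries (297 to 429).

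Because MYC and MAX bind the E-box CACGTG and replication genes are known targets of E2F factors, the promoters were searched for both motifs. The RefSeq windows (GRCm38.p6) reach from 250 bases before to 50 after a transcript start, and 48 windows of 39 of the 48 genes were found. *Gmnn*, *Mcm4*, *Gins1*, *Gins2*, *Gins4*, *Prim2*, *Pole*, *Rfc2* and *Tipin* had no entry. On either strand, 16 of the 48 windows, or 33.3%, held an E2F motif (TTTGGCGC, TTTCCCGC, TTTGCCGC or TTTCGCGC), against 3.69% of the windows of all genes tested and 2.26% of all windows. The E-box was in 7 windows, or 14.6%, against 9.71% of the windows of genes tested and 7.15% of all windows. Of the 10 genes lower at an unadjusted p under 0.05, 7 had a window. Among these, *Cdt1*, *Gins3*, *Mcm6* and *Mcm7* held an E2F motif and *Orc4* an E-box, while *Cdc45* and *Rpa2* held neither. *Orc4* and *Mcm7* also had windows at other annotated starts, which held neither motif. E2F motifs were also in 12 of the 32 other genes with a window, or 37.5%. A match is a description of the sequence, and binding was not measured.

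The matches of the 5 lower genes are shown with 30 bases around each, on the gene's strand, 5′ to 3′, with the motif in capitals. They are shown because they let the same short motif be compared across licensing and helicase genes.
Gins3 (chr8:95633507-95633536, 41 bases before the start): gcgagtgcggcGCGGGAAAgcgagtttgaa
Mcm6 (chr1:128359795-128359824, 110 bases before the start): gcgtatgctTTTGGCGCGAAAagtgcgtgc
Mcm6 (chr1:128359734-128359763, 47 bases before the start): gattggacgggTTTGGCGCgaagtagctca
Mcm7 (chr5:138172030-138172059, 165 bases before the start): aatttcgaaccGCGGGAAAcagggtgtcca
Mcm7 (chr5:138171849-138171878, from base 17 of the transcript): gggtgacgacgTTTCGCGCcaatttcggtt
Cdt1 (chr8:122568035-122568064, from base 33 of the transcript): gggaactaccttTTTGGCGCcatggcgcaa
Orc4 (chr2:48949283-48949312, 33 bases before the start): ctgaaagcaggtCACGTGgtggggcggagc
*Gins3* and *Mcm7* carried the same 8 bases, GCGGGAAA, which is TTTCCCGC read on the other strand. In *Mcm6* the first run is 2 overlapping matches, TTTGGCGC and GCGCGAAA, which is TTTCGCGC read on the other strand. The distances are from the RefSeq transcript start whose window holds the match. In GENCODE vM21 an exon of a *Gins3* transcript (95633453 to 95633783) holds the *Gins3* match, and an *Mcm7* exon (138171726 to 138172422) holds both *Mcm7* matches.

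Of the licensing genes, *Cdt1* and *Orc4* were lower in both treated libraries at an unadjusted p under 0.05. *Cdt1*, the loader that brings the MCM ring to ORC, had an FPKM of 29.8 and 19.0 in the DMSO libraries and of 8.89 and 12.5 in the treated ones. The groups did not overlap, with means of 24.4 ± 7.62 and 10.7 ± 2.53 (SD, n = 2 each). Its log2FC was -1.36 (SE 0.47, unadjusted p = 0.0218, adjusted p = 0.3331, edgeR), and -0.83 without DMSO replicate 1 (unadjusted p = 0.0541, edgeR). *Orc4*, an ATPase subunit of ORC, stood at 203 and 176 in DMSO and at 103 and 124 after treatment. In FPKM, both DMSO replicates were close to each other and above both treated ones, with means of 189 ± 19.3 and 113 ± 14.99 (SD, n = 2 each). In CPM, *Orc4* was at 614 and 439 in DMSO and at 251 and 274 in the treated libraries. The log2FC rests on counts and not on FPKM. The log2FC of *Orc4* was -1.001 (SE 0.37, unadjusted p = 0.0289, adjusted p = 0.3331, edgeR), and -0.72 without DMSO replicate 1 (unadjusted p = 0.00952, edgeR).

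The inhibitor of licensing, *Gmnn*, was at an FPKM of 2125 and 1528 in DMSO and of 1148 and 1621 in the treated libraries. The groups overlapped, since inhibitor replicate 2 lay above DMSO replicate 2, and the log2FC of -0.56 (SE 0.42, unadjusted p = 0.224, edgeR) became -0.14 without DMSO replicate 1. *Orc3*, the lowest licensing gene, was at 4.80 and 5.21 in DMSO and at 4.73 and 5.63 after treatment, with a log2FC of -0.09 (unadjusted p = 0.823, edgeR) and of -0.0093 without DMSO replicate 1. *Cdc6*, the ATPase that loads the ring together with ORC, had a log2FC of -0.72 (unadjusted p = 0.127, edgeR) with no overlap, and of -0.33 without DMSO replicate 1 (unadjusted p = 0.332, edgeR). *Orc1*, *Orc2* and *Orc6* had log2FC values of -0.14, -0.10 and -0.26, which became 0.10, 0.010 and -0.12 without DMSO replicate 1. In FPKM, both treated values of *Orc2* lay above both DMSO values, against the sign of its log2FC, and in CPM its groups overlapped. *Orc5* was the one licensing gene above 0, at a log2FC of 1.22 (SE 0.74, unadjusted p = 0.140, edgeR). Its FPKM was 40.6 and 297 in DMSO and 429 and 382 in the treated libraries. That difference rested on the low DMSO replicate 1, and without it the log2FC was 0.45.

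In the helicase, the largest differences were in *Cdc45* and in a pair of GINS genes. *Gins3* had an FPKM of 74.8 and 35.6 in DMSO and of 10.1 and 13.5 in the treated libraries. Every treated value was below every DMSO value, with means of 55.2 ± 27.7 and 11.8 ± 2.37 (SD, n = 2 each). The log2FC of *Gins3* was -2.41 (SE 0.52, unadjusted p = 0.00202, adjusted p = 0.3331, edgeR), and -1.59 without DMSO replicate 1 (unadjusted p = 0.00129, edgeR). DESeq2 gave it -2.43 with an adjusted p of 0.00147, and the adjusted p ranged from 0.000152 to 0.992 over all alternatives. *Gins3* lies on chromosome 8 from 95633559 to 95645059 in the RefSeq table (GRCm38), which lists no other gene that overlaps it.

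*Gins1* was at 144 and 79.7 in DMSO and at 21.9 and 36.7 after treatment. The treated libraries were both lower, with means of 112 ± 45.7 and 29.3 ± 10.5 (SD, n = 2 each). Its log2FC was -2.11 (SE 0.52, unadjusted p = 0.00427, adjusted p = 0.3331, edgeR), and -1.40 without DMSO replicate 1 (unadjusted p = 0.00746, edgeR). DESeq2 gave -2.13 with an adjusted p of 0.00806, in a range from 0.00162 to 0.992 over the alternatives. *Gins1* lies on chromosome 2 from 150909556 to 150931280 and overlaps another annotated gene, *Gm20550*. *Gins1* and *Gins3* had an unadjusted p under 0.05 in all 14 alternatives that gave a p for them.

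*Cdc45*, the helicase partner that joins the MCM ring when an origin fires, was at 223 and 113 in DMSO and at 65.5 and 68.5 in the treated libraries. DMSO replicate 1 was much the highest, and DMSO replicate 2 still lay above both treated values, with means of 168 ± 77.2 and 67.0 ± 2.08 (SD, n = 2 each). The log2FC was -1.47 (SE 0.47, unadjusted p = 0.0152, adjusted p = 0.3331, edgeR), and -0.72 without DMSO replicate 1 (unadjusted p = 0.0112, edgeR). DESeq2 gave -1.49 with an adjusted p of 0.0430, in a range from 0.00116 to 0.992. *Cdc45* lies on chromosome 16 from 18780447 to 18811972, where *Ufd1* overlaps it.

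The other GINS genes, *Gins2* and *Gins4*, had log2FC values nearer to 0. *Gins2* was at 18.7 and 30.3 in DMSO and at 41.9 and 33.7 in the treated libraries, higher in both treated libraries, with a log2FC of 0.52 (SE 0.44, unadjusted p = 0.276, edgeR) and of 0.32 without DMSO replicate 1. *Gins4* was at 125 and 83.1 in DMSO and at 108 and 80.0 after treatment. Its groups overlapped, and its log2FC of -0.32 (unadjusted p = 0.473, edgeR) became 0.18 without DMSO replicate 1. The differences between subunits were not tested.

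**Figure D4:**
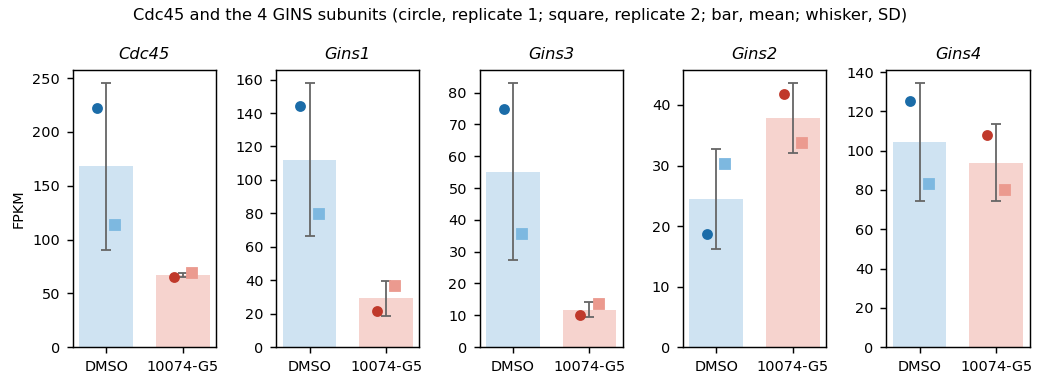
FPKM of *Cdc45* and the 4 GINS genes in each library (circles, replicate 1; squares, replicate 2), with the group mean as a bar from 0 and the SD as a whisker. *Cdc45*, *Gins1* and *Gins3* are lower in both treated libraries, *Gins2* is higher in both, and the groups of *Gins4* overlap.

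Of the MCM ring, *Mcm6* and *Mcm7* were lower in both treated libraries at an unadjusted p under 0.05. *Mcm6* was at 91.9 and 75.7 in DMSO and at 32.0 and 53.7 in the treated libraries, so the groups did not overlap, with means of 83.8 ± 11.4 and 42.9 ± 15.3 (SD, n = 2 each). Its log2FC was -1.13 (SE 0.41, unadjusted p = 0.0272, adjusted p = 0.3331, edgeR), and -0.82 without DMSO replicate 1 (unadjusted p = 0.0386, edgeR). *Mcm7* was at 21.1 and 14.1 in DMSO and at 8.37 and 8.73 after treatment, again without overlap. Its log2FC was -1.21 (SE 0.46, unadjusted p = 0.0316, adjusted p = 0.3331, edgeR), and -0.72 without DMSO replicate 1 (unadjusted p = 0.0707, edgeR). *Mcm7* on chromosome 5 shares its span with *Ap4m1* and with microRNA genes.

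The other ring genes had log2FC values nearer to 0. *Mcm5*, the lowest of the ring, was at 4.38 and 6.43 in DMSO and at 4.99 and 4.49 after treatment, with a log2FC of -0.31 (unadjusted p = 0.518, edgeR). *Mcm2*, *Mcm3* and *Mcm4* had log2FC values of -0.36, 0.16 and -0.30, and that of *Mcm3* became 0.036 without DMSO replicate 1. In FPKM, *Mcm6* was the most abundant ring gene in all 4 libraries and *Mcm5* the least.

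Of the origin firing genes, the kinase and its activator had log2FC values of opposite sign. *Dbf4*, the activator, was at an FPKM of 229 and 426 in DMSO and of 496 and 480 in the treated libraries, with a log2FC of 0.47 (SE 0.39, unadjusted p = 0.271, edgeR) and of 0.20 without DMSO replicate 1. *Cdc7*, the kinase, was at 8.98 and 6.80 in DMSO and at 3.58 and 5.36 after treatment, with a log2FC of -0.98 (SE 0.50, unadjusted p = 0.0848, edgeR) and of -0.60 without DMSO replicate 1. Neither pair of groups overlapped, and neither difference passed the test. *Mcm10* had a log2FC of -0.73 (unadjusted p = 0.129, edgeR), or -0.31 without DMSO replicate 1.

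Among the polymerase genes, *Pole*, the catalytic subunit of the leading-strand polymerase ε, was the only one with an unadjusted p under 0.05. It was at 6.35 and 5.21 in DMSO and at 3.39 and 3.09 in the treated libraries, with no overlap and means of 5.78 ± 0.806 and 3.24 ± 0.212 (SD, n = 2 each). Its log2FC was -0.99 (SE 0.42, unadjusted p = 0.0480, adjusted p = 0.334, edgeR), and -0.69 without DMSO replicate 1 (unadjusted p = 0.0688, edgeR). *Pole2*, its second subunit, had a log2FC of -0.39.

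The genes of polymerase α and primase, which start each strand, were mixed. *Pola1*, the catalytic subunit, was at 20.3 and 11.4 in DMSO and at 7.58 and 9.86 after treatment, with a log2FC of -1.05 (unadjusted p = 0.0560, edgeR) and of -0.39 without DMSO replicate 1. *Prim2*, the large primase subunit, had a log2FC of -1.19 (unadjusted p = 0.0599, edgeR), or -0.56 without DMSO replicate 1, while *Pola2* stood at 0.20, or -0.044 without it. *Prim1*, the primase that synthesises the RNA primer and the most abundant polymerase gene, was at 151 and 129 in DMSO and at 104 and 138 in the treated libraries. Its groups overlapped, and its log2FC was -0.37 (unadjusted p = 0.353, edgeR), or -0.089 without DMSO replicate 1. Of the polymerase δ genes, *Pold2* and *Pold3* had log2FC values of 0.39 and 0.54, and that of *Pold2* became 0.93 without DMSO replicate 1.

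The clamp gene *Pcna* was at an FPKM of 243 and 252 in DMSO and of 277 and 321 in the treated libraries. Both treated values were the higher in FPKM and the groups overlapped in CPM, and the log2FC was 0.13 (unadjusted p = 0.714, edgeR), or 0.25 without DMSO replicate 1. Pseudogenes of *Pcna* are annotated, and whether they affect its reads was not tested. By the study's methods, only uniquely mapped reads were used. *Rfc2*, the lowest loader gene, was at 8.18 and 8.48 in DMSO and at 8.07 and 11.6 after treatment, with a log2FC of 0.10 (unadjusted p = 0.853, edgeR) and of 0.22 without DMSO replicate 1. *Rfc3* had the largest log2FC of the loader, at 0.83 (SE 0.48, unadjusted p = 0.123, edgeR), with an FPKM of 8.60 and 9.40 in DMSO and of 17.1 and 18.2 after treatment. *Rfc1*, *Rfc4* and *Rfc5* had log2FC values of 0.15, -0.25 and 0.63, which became 0.26, 0.12 and 0.42 without DMSO replicate 1.

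The subunits of replication protein A, which coats single-stranded DNA, had log2FC values on both sides of 0. *Rpa2* was at 302 and 171 in DMSO and at 97.6 and 142 in the treated libraries, without overlap. Its log2FC was -1.16 (SE 0.46, unadjusted p = 0.0383, adjusted p = 0.3331, edgeR), and -0.51 without DMSO replicate 1 (unadjusted p = 0.101, edgeR). *Rpa1*, the large subunit and the least abundant, was at 2.23 and 3.89 in DMSO and at 6.37 and 6.42 after treatment, with a log2FC of 0.96 (SE 0.50, unadjusted p = 0.0929, edgeR) and of 0.72 without DMSO replicate 1. *Rpa3* had a log2FC of 0.32, or 0.042 without DMSO replicate 1.

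Of the genes that finish Okazaki fragments, the flap nuclease gene *Fen1* was at 9.49 and 13.7 in DMSO and at 6.01 and 7.91 in the treated libraries. Its log2FC was -0.85 (unadjusted p = 0.105, edgeR), and -0.97 without DMSO replicate 1 (unadjusted p = 0.0471, edgeR). *Lig1*, the DNA ligase gene, was at 1.10 and 3.92 in DMSO and at 3.91 and 2.64 after treatment. Its log2FC of 0.32 (unadjusted p = 0.657, edgeR) became -0.26 without DMSO replicate 1.

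In the fork protection complex, *Tipin* was at 1368 and 1293 in DMSO and at 691 and 812 in the treated libraries. In FPKM, the DMSO replicates lay close together and well above the treated ones, with means of 1330 ± 53.0 and 751 ± 85.4 (SD, n = 2 each). In CPM, *Tipin* was at 1460 and 1160 in DMSO and at 622 and 715 in the treated libraries. The log2FC of *Tipin* was -0.97 (SE 0.38, unadjusted p = 0.0337, adjusted p = 0.3331, edgeR), and -0.78 without DMSO replicate 1 (unadjusted p = 0.00673, edgeR). *Timeless* was at 1.60 and 2.22 in DMSO and at 1.92 and 2.37 after treatment, with a log2FC of 0.04 (unadjusted p = 0.937, edgeR) and of -0.053 without DMSO replicate 1. *Wdhd1*, which links polymerase α to the helicase, had a log2FC of -0.33, and 0.47 without DMSO replicate 1. The proteins of *Mcm8* and *Mcm9* act in DNA repair and not in licensing. *Mcm8* was at 1.48 and 3.44 in DMSO and at 5.07 and 3.76 after treatment. Its log2FC was 0.76 (unadjusted p = 0.220, edgeR), and 0.36 without DMSO replicate 1. *Mcm9* was at 2.22 and 4.01 in DMSO and at 1.76 and 3.68 after treatment. Its log2FC was -0.31 (unadjusted p = 0.609, edgeR), and -0.56 without DMSO replicate 1.

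Another 36 listed genes of replication included topoisomerases, chromatin assembly factors and further fork and origin factors. Their median log2FC was -0.41, or -0.26 without DMSO replicate 1, and with all 4 libraries 25 of them lay below 0. At an unadjusted p under 0.05, 4 were lower, or 11.1% beside 10.1% of all genes tested, and 0 were higher, beside 4.72%. The lower share was near the background. *Top2a*, the topoisomerase that untangles copied chromosomes, was at 88.7 and 44.4 in DMSO and at 14.6 and 26.0 after treatment, with a log2FC of -1.90 (SE 0.53, unadjusted p = 0.00762, adjusted p = 0.3331, edgeR). *Dna2*, a nuclease and helicase of fragment maturation, had a log2FC of -1.37 (unadjusted p = 0.0128, edgeR). *Dtl*, the adaptor by which a ubiquitin ligase removes CDT1 in S phase, had -1.40 (unadjusted p = 0.0222, edgeR). *Rnaseh2a*, which removes RNA from DNA, had -1.50 (unadjusted p = 0.0266, edgeR). All 4 were lower in both treated libraries. Without DMSO replicate 1 their log2FC values were -1.13 for *Top2a*, -0.97 for *Dna2*, -0.59 for *Dtl* and -1.33 for *Rnaseh2a*.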

How the data were processed

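RNA-seq libraries were made by the authors with the SMART-Seq v4 PLUS kit from polyadenylated RNA, 2 libraries a group. Per the labels, STAR 2.7.10, RSEM 1.3.3 and mm10 were used. The authors deposited, per gene, an expected count (RSEM's estimate of fragments, not normalized), TPM and FPKM. The TPM deposited by the authors was only checked. The FPKM deposited by the authors, scaled to effective length and library fragments, gives the levels. The effective transcript lengths, also deposited, entered 1 alternative. The study's methods call the libraries of a group biological replicates, each a pool of 10 embryos.

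Expected counts were rounded, filtered (filterByExpr, minimum count 10, minimum total 15), TMM-scaled (factors 0.873, 1.04, 1.04 and 1.06) and tested with edgeR 4.0.16 in R 4.3.3. The common biological coefficient of variation was 0.557. SD values are over 2 libraries, and limits from counts cover counting error only, as PCR copies were not separated. DESeq2 1.42.0, limma 3.58.1 and the other alternatives are in the closing section. The scripts were tested on simulated data. Values in every library are given for genes with an unadjusted edgeR p under 0.05, genes called by DESeq2, and the highest and lowest gene of each role by mean FPKM, and of the 36 other replication genes those with an unadjusted p under 0.05, at most 6. Further genes with printed levels (*Orc5*, *Gins2*, *Gins4*, *Pola1*, *Rfc3*) were chosen after their values were seen. The members and lists were chosen with earlier results of these data known.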

Additional observations from a re-analysis of the deposited data

How the results depend on the processing

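The count of replication genes called lower was 0 with edgeR and 3 with each of the 3 DESeq2 settings and with edgeR without a filter, and it ranged from 0 to 15 when each library was left out. The 15 came without DMSO replicate 2, and the count was 0 without DMSO replicate 1 and without either treated library. The count called higher ranged from 0 to 1 when a library was left out. At an unadjusted p under 0.05, the lower count of 10 was 6 with limma on log2(FPKM + 1) and ranged from 2 to 18 when a library was left out, the 2 remaining genes being *Gins1* and *Gins3*. The higher count of 0 was 1 with each DESeq2 setting, both limma settings and no filter, and ranged from 0 to 6 without 1 library. Of the other replication genes, the lower count ranged from 0 to 13 and the higher count from 0 to 3 without 1 library. With 1 library left in a group, that library was assumed to vary like the other group. For the fits without DMSO replicate 2 or without a treated library, the shares of all genes were not taken. The counts of those fits therefore cannot show whether the replication genes differ from other genes.

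With the replicate number as a block, 0 replication genes were called, and at an unadjusted p under 0.05, 5 were lower (*Cdt1*, *Mcm6*, *Cdc45*, *Gins1* and *Gins3*) and 1 higher (*Orc5*), beside 6.66% and 6.61% of all genes tested. The correlation of same-numbered replicates' deviations was -0.0925. That value cannot show whether same-numbered libraries were handled together, which the study's methods do not say.

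The median log2FC of the replication genes was -0.14 with either limma setting and -0.15 with library totals, and ranged from -0.35 to -0.12 without 1 library. The helicase median ranged from -0.68 to -0.27, licensing from -0.39 to -0.098 and polymerases from -0.58 to -0.16. *Orc3* turned from -0.09 to 0.038 and 0.045 with limma and 0.051 with library totals, and to between -0.21 and 0.059 without 1 library. Without 1 library, *Rfc2* ranged from -0.17 to 0.37, *Lig1* from -0.26 to 1.32, *Timeless* from -0.095 to 0.21 and *Mcm9* from -0.92 to 0.16. The cause of these changes was not tested. Of the values of named genes under the alternatives, 349 kept their direction and their side of the threshold, 33 passed it and 10 turned.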

Other observations

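Ratios of partner transcripts within a library do not depend on library scaling. They were chosen after the values were seen and are given as a description, with no test. The FPKM of *Gins3* over that of *Gins4* was 0.596 and 0.428 in the DMSO libraries and 0.0941 and 0.169 in the treated ones, and that of *Gins1* over *Gins4* was 1.15 and 0.958 against 0.203 and 0.460. The least abundant GINS transcript was *Gins2* in both DMSO libraries and *Gins3* in both treated libraries. The ratio of *Gmnn*, the licensing inhibitor, to its target *Cdt1* was 71.4 and 80.5 in DMSO and 129 and 130 after treatment. The ratio of *Tipin* to *Timeless*, whose proteins form one complex, was 855 and 582 in DMSO and 360 and 343 after treatment. That of *Rpa2* to *Rpa1* was 135 and 44.0 in DMSO and 15.3 and 22.1 after treatment. In each of these ratios both treated libraries lay on one side of both DMSO libraries. The ratio of *Mcm6* to *Mcm5* overlapped, at 21.0 and 11.8 in DMSO and 6.42 and 11.96 after treatment.

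The DMSO replicates differed by over 2-fold for 10 of 47 replication genes, or 21.3%, and for 43.4% of all genes tested, and the treated replicates for 1, or 2.13%, against 21.9% of all genes.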
